A study of Canis lupus familiaris with 4 samples.

Results

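Isolated opened peaks are 572 accessible sites of canine kidney epithelial cells with little ATAC-seq signal in mature monolayers. They reached the level of an ordinary peak 2 h after the cells were detached and reseeded, and had no other gained peak close by. They were chosen on the measured values: mean accessibility of at least 10 CPM (the count in a peak divided by the library's total over all peaks, times 1000000) in reseeded cells and under 2 CPM in mature cells, on the numbered chromosomes, with no other peak midpoint within 10 kb whose ratio of reseeded to mature CPM (0.5 CPM added to each) was 2 or more. They make up 572 of 59081 peaks in the table, or 572 of 57672 on the numbered chromosomes. The limits alone fix a ratio of at least 4.2 at each of them, so their levels and ratios are given below as a description and without a test.

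ATAC-seq uses the transposase Tn5, which cuts and tags DNA where nucleosomes are absent or displaced, so a peak marks a stretch open to proteins, commonly a promoter or an enhancer. Promoters tend to be open in many states, whereas distal enhancers open and close with the cell's condition as transcription factors and remodelling complexes displace nucleosomes. MDCKII cells form tight, polarised monolayers in culture, and detaching them breaks their contacts with neighbours and substrate, which must be rebuilt as the cells attach and spread again.

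The reseeded cells were MDCKII grown for 7 d to maturity, then detached and reseeded for 2 h (libraries A and B), and the mature cells were MDCKII left as monolayers at 7 d (libraries A and B). All 4 libraries came from a single unmodified line, and whether A and B came from different cultures is not stated, so p-values below reflect how much these libraries vary, and that variation may be technical. Sample names begin with one code in both reseeded libraries and another in both mature libraries, and reseeding cannot be told apart from a batch marked by that code. Total counts in peaks were 16906566 and 24015663 in reseeded libraries A and B, and 8759513 and 6253706 in mature libraries A and B. All peaks were 501 bp wide, and positions are given on CanFam3.1, counted from 1. No genome or gene annotation of that build was used here, so no gene, promoter or sequence is named for any peak.

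After reseeding, the isolated opened peaks stood in the middle of the range of all peaks. Their CPM ran from 8.93 to 35.8 in reseeded A, with a median of 13.1, and from 9.12 to 34.1 in reseeded B, also with a median of 13.1. In mature cells it ran from 0.114 to 2.74 in library A, with a median of 1.37, and from 0.16 to 3.04 in library B, with a median of 1.76. Among all peaks of a library, the median isolated opened peak ranked at the 50.7th percentile in reseeded A and the 50.5th in reseeded B, but at the 2.64th in mature A and the 2.12th in mature B. In reseeded A, 292 of the 572 exceeded the library's median peak, and in reseeded B 293 did; none did in either mature library. Together they took 0.826% and 0.83% of the counts of reseeded A and B, against 0.0775% and 0.103% of those of mature A and B.

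**Figure D1:**
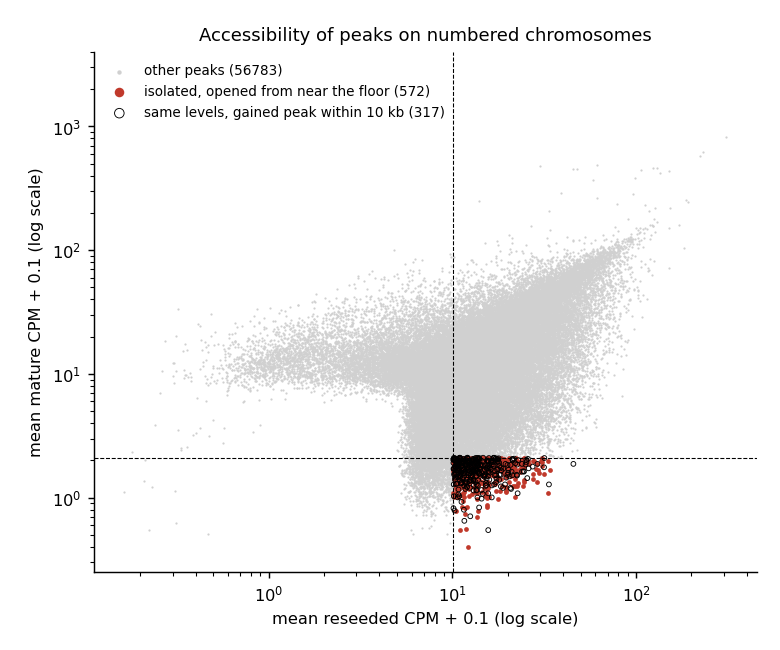
Mean reseeded CPM (horizontal) against mean mature CPM (vertical) of every peak on the numbered chromosomes, both with 0.1 added and on log scales; dashed lines mark the limits of 10 and 2 CPM. The 572 isolated opened peaks (filled) and the 317 peaks at the same levels with a gained peak within 10 kb (open circles) share the lower right corner, just under the mature limit for the most part.

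Most of these sites kept a low count in mature cells and were not empty. A count of 3, taken as the floor, equals 0.342 CPM in mature A and 0.48 CPM in mature B, whereas the median count at the isolated opened peaks was 12 in mature A and 11 in mature B. Only 8 of them were at or under 3 counts in mature A and 4 in mature B, and none was at 0 in any library. Mean mature CPM was under 0.5 at 3 peaks, from 0.5 to under 1 at 32, from 1 to under 1.5 at 164 and from 1.5 to under 2 at 373. Near the floor here means the lowest few percent of mature peaks: 206 peaks of the whole table were under 1 CPM and 2396 under 2 CPM in mature cells. Mean reseeded CPM was from 10 to under 12 at 213 peaks, from 12 to under 15 at 174, from 15 to under 20 at 120 and 20 or more at 65.

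The ratio of mean reseeded to mean mature CPM had a median of 8.56 over the 572 peaks, with quartiles of 6.94 and 11.1 and a range of 5.15 to 40.5. The smallest ratio of the lower reseeded library to the higher mature library was 3.33. The rule fixes that value in large part and it is no finding, and the same ratio is not given here for all peaks. All 572 passed the filter on low counts, as their reseeded levels alone ensure.

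The 8 peaks with the highest ratio (with 0.5 CPM added) lay on 7 chromosomes. The first was on chromosome 24 from 11228768 to 11229268, with 32.2 and 33.6 CPM in reseeded A and B, against 1.03 and 0.959 CPM in mature A and B. Its mean was 32.9 ± 0.937 CPM in reseeded cells and 0.993 ± 0.0481 CPM in mature cells (SD, n = 2 each), and its pooled counts gave a ratio of 33.0 (95% counting interval 19.96 to 59.2). Both libraries of each state were close there, and the mature pair held 9 and 6 counts.

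The second, on chromosome 12 from 24655300 to 24655800, had 29.6 and 27.7 CPM in reseeded A and B, against 1.03 and 1.44 CPM in mature A and B. The third, on chromosome 18 from 8109840 to 8110340, had the highest reseeded level of the set, 35.8 and 32.1 CPM in reseeded A and B, against 1.37 and 1.76 CPM in mature A and B. The fourth, on chromosome 11 from 56317552 to 56318052, had 31.3 and 31.9 CPM in reseeded A and B, against 1.60 and 1.28 CPM in mature A and B. These 3 resembled the first in their reseeded level; mature A was the higher of its pair on chromosomes 24 and 11, and mature B on chromosomes 12 and 18.

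On chromosome 4 from 69967008 to 69967508, the values were 21.1 and 22.3 CPM in reseeded A and B, against 0.685 and 1.12 CPM in mature A and B. The peak on chromosome 11 from 61819399 to 61819899 had only 11.8 and 12.2 CPM in reseeded A and B, against 0.114 and 0.48 CPM in mature A and B. It entered the list through its mature counts of 1 and 3, which leave a pooled ratio of 45.2 with a wide counting interval of 17.5 to 167. The last of the 8 were on chromosome 7 from 15678569 to 15679069, with 25.9 and 29.0 CPM in reseeded A and B, against 1.48 and 1.12 CPM in mature A and B, and on chromosome 13 from 45947379 to 45947879, with 29.2 and 30.02 CPM in reseeded A and B, against 1.03 and 1.92 CPM in mature A and B. At the chromosome 7 peak mature A was the higher of its pair, and at the chromosome 13 peak mature B.

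**Figure D2:**
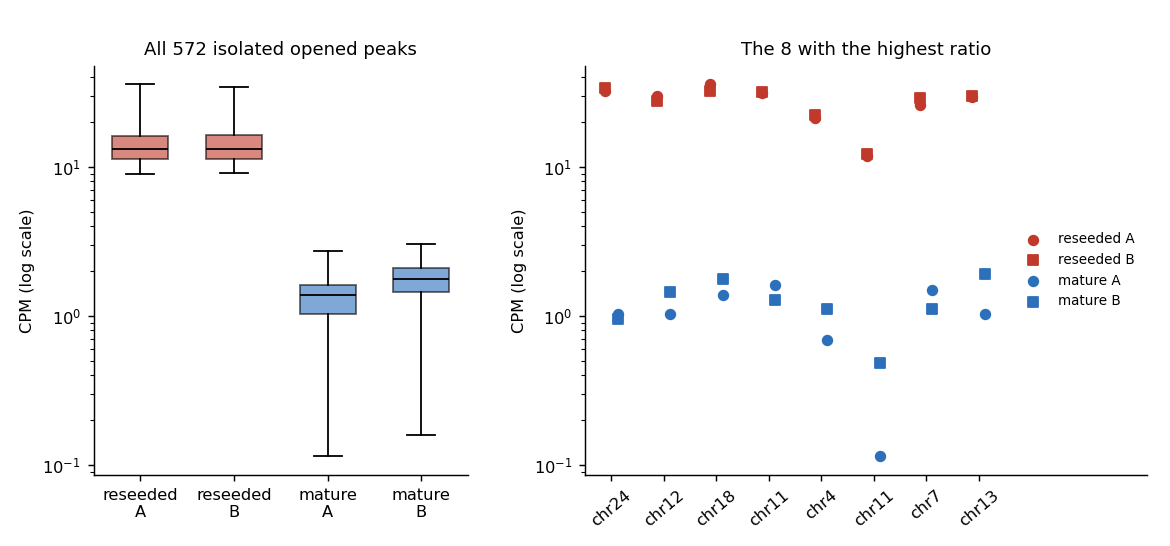
Left, CPM of the 572 isolated opened peaks in each library on a log scale (line, median; box, quartiles; whiskers, lowest and highest). Right, CPM of the 8 with the highest ratio, by chromosome and in the order of the text, on a log scale (circles, library A; squares, library B); reseeded values lie between 11.8 and 35.8 CPM and mature values between 0.114 and 1.92 CPM.

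Besides these, 2 peaks were among the 5 with the highest reseeded level. On chromosome 12 from 53844215 to 53844715 there were 31.9 and 34.1 CPM in reseeded A and B, against 1.48 and 2.24 CPM in mature A and B, and on chromosome 23 from 38056326 to 38056826 there were 30.8 and 30.7 CPM in reseeded A and B, against 2.28 and 1.60 CPM in mature A and B. After the chromosome 11 peak with 4 mature counts, the lowest mature levels were on chromosome 33 from 28296239 to 28296739, with 10.9 CPM in each reseeded library, against 0.571 and 0.32 CPM in mature A and B, and on chromosome 12 from 58623037 to 58623537, with 12.2 and 11.5 CPM in reseeded A and B, against 0.114 and 0.80 CPM in mature A and B. Their pooled ratios were 23.4 (counting interval 11.3 to 58.5) and 29.4 (13.4 to 80.5). The lowest mature levels thus came with reseeded levels near the lower limit.

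Peaks on either side of the limits were alike in level. Just inside the mature limit were 3 peaks with 14 counts in mature A and 15 in mature B (mean 2.00 CPM), and just outside were 3 with 17 and 13 counts (mean 2.01 CPM). Inside were chromosome 1 from 74026205 and from 82602841 and chromosome 14 from 18630379, with mean reseeded CPM of 11.98, 11.0 and 13.8, and outside were chromosome 5 from 5268413, chromosome 1 from 81120692 and chromosome 38 from 16333363, with 12.6, 15.7 and 10.9. At the reseeded limit, the 3 peaks inside (chromosome 36 from 25798621, chromosome 7 from 13430358 and chromosome 37 from 18204935) had 10.0, 10.0 and 10.0 CPM, and the 3 outside (chromosome 33 from 17958085, chromosome 8 from 43055915 and chromosome 30 from 23353059) had 9.97, 9.96 and 9.96 CPM. In a single library, 247 of the 572 had at least 2 CPM in mature A or B, and 53 had under 10 CPM in reseeded A or B. The 95% counting intervals of the pooled counts stayed wholly within both limits at 92 peaks, within the reseeded limit at 457 and within the mature limit at 130.

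At these peaks the libraries of the reseeded pair had nearly the same level, and those of the mature pair differed in level. The median log2 ratio of library B to library A was 0.01 in reseeded cells and 0.39 in mature cells, and B exceeded A at 305 of the 572 in reseeded cells and at 422 in mature cells. Over all peaks of the numbered chromosomes the corresponding medians were 0.00 and 0.03. At the 317 peaks at the same levels with a gained peak within 10 kb the mature median was 0.49, with B above A at 243. The 10th percentile of all peaks of the numbered chromosomes was also higher in mature B, 3.36 CPM against 2.63 CPM in mature A. Once the shift shared by the isolated opened peaks was allowed for, the chi-square per degree of freedom between A and B was 0.982 in reseeded cells. In mature cells it was 1.11. Over all peaks of the numbered chromosomes it was 1.10 in reseeded and 1.71 in mature cells. The rule limited the means of these same pairs, and its mature limit bars a high count in either mature library. The values at the isolated opened peaks are therefore a description and no test of agreement. Mature B was the shallowest library. The median ratio of reseeded to mature CPM was 10.3 from the A libraries alone and 7.61 from the B libraries alone. The part of depth in that difference was not tested.

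Choosing the peaks with 1 library left out and reading them in that library gave levels that the choice had not used. Without reseeded A the rule took 591 peaks, with a median of 13 CPM in reseeded A, and 519 of them (87.8%) reached 10 CPM there. Without reseeded B it took 562, with a median of 13.2 CPM in reseeded B, and 520 (92.5%) reached 10 CPM. The reseeded level was thus nearly the same in a library that took no part in applying the rule. The peaks of the table may themselves have been called with the library left out, so these readings need not be free of selection.

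Mature readings moved more. Without mature A the rule took 426 peaks, with a median of 1.48 CPM in mature A, and 330 (77.5%) were under 2 CPM there. Without mature B it took 934, with a median of 2.40 CPM in mature B against 1.48 CPM in mature A, which had chosen them, and only 324 (34.7%) were under 2 CPM in mature B. In the 4 readings, 367 to 552 of the peaks chosen were among the 572. How close the peaks were to the floor depended on which mature library was read.

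Peaks at the same levels that did have a gained peak within 10 kb numbered 317, so 64.3% of the 889 peaks at these levels on the numbered chromosomes were isolated. Their median CPM was 13.2 and 12.95 in reseeded A and B, against 1.26 and 1.76 in mature A and B, close to the isolated peaks in every library. With the rule mirrored, 650 peaks had at least 10 CPM in mature cells, under 2 CPM in reseeded cells and no other lost peak within 10 kb, 52% of the 1250 peaks at those levels. Isolated opened peaks were thus fewer than isolated closed ones but a larger share of their level class, and neither difference was tested. The closed peaks were lower in their low state, with medians of 1.18 and 1.29 CPM in reseeded A and B, than the opened peaks were in theirs. These low states were read at unlike depths. The limit of 2 CPM is 33.8 and 48.0 counts in reseeded A and B, but 17.5 and 12.5 in mature A and B.

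Within 10 kb, 445 of the 572 (77.8%) had no other peak of any kind, against 26.9% of all peaks on the numbered chromosomes. The rule bars gained neighbours there and so raises that share by itself. The other 127 had 182 further peaks within 10 kb, whose folds were free to fall but not to rise by 2. With calls made by edgeR's quasi-likelihood test (adjusted p under 0.05), 29 of these 182 (15.9%) were at least 2-fold lower after reseeding, a share near the 15.1% of all 56913 tested peaks of the numbered chromosomes beyond 10 kb. A further 2 were called at least 2-fold higher, as the fitted fold carries no added 0.5 CPM.

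These fallen peaks lay beside 25 isolated opened peaks. A lost peak within 10 kb (ratio of 0.5 or less) was less frequent than usual. It lay beside 21 of the 572 (3.67%), against 20.7% of all peaks on the numbered chromosomes. Peaks at the same levels with a gained peak within 10 kb had a similar share, 4.42%. The isolated opened set has few peaks of any kind at that distance. The nearest such pair was on chromosome 7, where the opened peak from 24199293 to 24199793 had 11.9 and 11.4 CPM in reseeded A and B, against 1.14 and 2.40 CPM in mature A and B. The peak 1.45 kb away, from 24200746 to 24201246, had 3.79 and 3.04 CPM in reseeded A and B, against 11.8 and 8.79 CPM in mature A and B (log2 fold -1.67, SE 0.22, adjusted p = 2.33e-08). One site thus stood at about the level in reseeded cells that the other had in mature cells.

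The next pairs were on chromosome 29, with a fallen peak from 8544271 to 8544771 at 1.55 kb from the opened peak (log2 fold -1.73, SE 0.13, adjusted p = 2.91e-14), and on chromosome 4, with one from 7866966 to 7867466 at 2.37 kb (log2 fold -1.33, SE 0.17, adjusted p = 1.6e-08). The deepest fall beside an opened peak was also on chromosome 29, 3.63 kb from the opened peak at 12074760 to 12075260. That opened peak had 12.2 and 14.2 CPM in reseeded A and B, against 1.60 and 2.08 CPM in mature A and B. Its neighbour from 12071127 to 12071627 had 1.06 and 1.54 CPM in reseeded A and B, against 17.1 and 16 CPM in mature A and B (log2 fold -3.67, SE 0.22, adjusted p = 2.37e-16).

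On chromosome 2 a pair of opened peaks enclosed fallen ones, a place singled out after its values were seen. The opened peaks, from 19789180 to 19789680 and from 19803809 to 19804309, were 14.6 kb apart, the closest spacing in the set. The first had 17.2 and 16.5 CPM in reseeded A and B, against 1.60 and 1.44 CPM in mature A and B, and the second had 16.4 and 15.1 CPM in reseeded A and B, against 1.48 and 2.24 CPM in mature A and B. Between them, the peak from 19792018 to 19792518 had 7.93 and 8.54 CPM in reseeded A and B, against 20.4 and 16 CPM in mature A and B, and the peak from 19796182 to 19796682 had 1.12 and 1.29 CPM in reseeded A and B, against 10.6 and 11.8 CPM in mature A and B (log2 fold -3.23, SE 0.28, adjusted p = 1.99e-12).

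Where the nearest other peak lay closest, it was open in both states. On chromosome 3 the opened peak from 73409844 to 73410344 (14.5 and 12.6 CPM in reseeded A and B, against 1.71 and 1.76 CPM in mature A and B) had a neighbour 0.701 kb away with 11.3 CPM in each reseeded library, against 5.14 and 6.24 CPM in mature A and B. On chromosome 1 the opened peak from 27472409 to 27472909 (18.2 and 19.9 CPM in reseeded A and B, against 1.48 and 2.40 CPM in mature A and B) had one 0.784 kb away with 6.68 and 7.16 CPM in reseeded A and B, against 6.51 and 6.08 CPM in mature A and B. On chromosome 32 the opened peak from 37623397 to 37623897 (12.8 and 14.3 CPM in reseeded A and B, against 1.14 and 2.08 CPM in mature A and B) had one 0.848 kb away with 11.7 and 9.95 CPM in reseeded A and B, against 5.25 and 6.72 CPM in mature A and B. These 3 opened peaks therefore each stood beside a site already open in mature cells, though weakly. Mean mature CPM of the neighbours was 5.69, 6.29 and 5.98, near the lower quartile of 6.15 over all peaks of the numbered chromosomes. Their ratios with 0.5 CPM added were 1.91, 1.09 and 1.75, so those on chromosomes 3 and 32 rose but stayed under the bar of 2.

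Beyond 10 kb the rule says nothing of a peak's fold, so the surroundings there were read from the test over all peaks. Of 1505 tested peaks lying 10 to 50 kb from the nearest isolated opened peak, themselves not in the set, 585 (38.9%) were called higher by 2-fold or more after reseeding, and 158 (10.5%) were called lower by as much. Over all 56913 tested peaks of the numbered chromosomes beyond 10 kb these shares were 26.4% and 15.1%. The median log2 fold of the 1505 peaks was 0.50, against -0.02 over all. Opened peaks that were not isolated had surroundings of the same kind. In the same band around peaks at the same levels with a gained peak within 10 kb, 995 peaks were tested. Rises of that size were called at 413 of them (41.5%) and falls at 86 (8.64%), and their median log2 fold was 0.71. The larger share of gains was thus not particular to isolated opened peaks. Neighbouring peaks are not independent replicates, and the differences between the shares were not tested.

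The share of higher peaks was lower at each greater distance. It was 41.3% of 409 peaks from 10 to 20 kb, 38% of 1096 from 20 to 50 kb, 33.6% of 1752 from 50 to 100 kb, 33.0% of 2914 from 100 to 200 kb, 30.4% of 6829 from 200 to 500 kb and 24.6% of 43913 farther away. The share of lower peaks went the other way in the main, from 9.05% at 10 to 20 kb to 15.9% beyond 500 kb. Counted per peak rather than as a share of neighbours, a gained peak was nonetheless farther off than usual, which the rule brings about in part. Of the 572, 321 (56.1%) had one within 50 kb and 448 (78.3%) within 100 kb, against 67.7% and 84.5% of all peaks on the numbered chromosomes, and the median distance to it was 39.4 kb, against 26.3 kb.

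**Figure D3:**
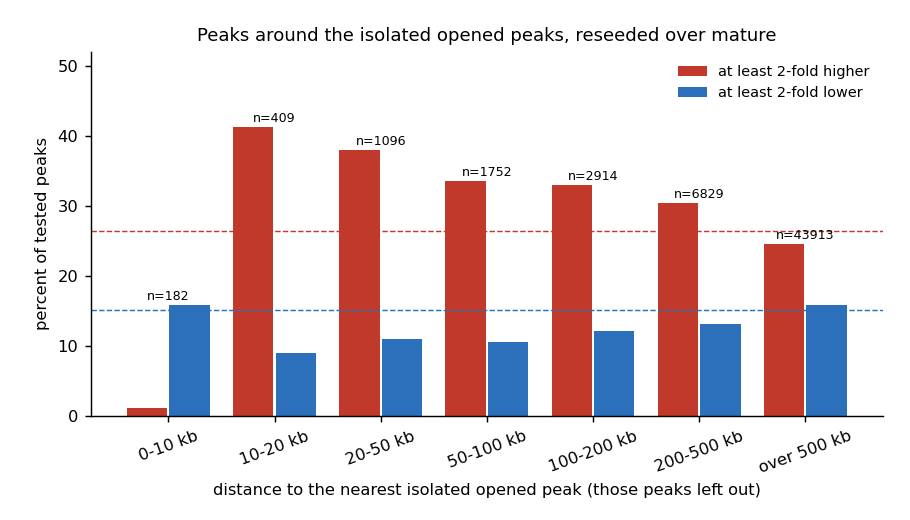
Percent of tested peaks called higher (left bar) and called lower (right bar) by 2-fold or more after reseeding, by distance to the nearest isolated opened peak, with the number of peaks above; dashed lines mark the shares of all peaks of the numbered chromosomes beyond 10 kb, 26.4% and 15.1%. From 10 kb outward higher peaks go from 41.3% to 24.6%, and within 10 kb the rule itself bars them.

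Peak density moves with these shares, since gains are more frequent where peaks are sparse. With the peaks split into 5 classes by the number of others within 500 kb, the share called at least 2-fold higher was in each class larger 10 to 50 kb from an isolated opened peak than beyond 50 kb. In the sparsest class (up to 25 others) it was 39.9% of 456 peaks near and 34.8% of 11178 far, in the next 43.7% near and 32.1% far, in the middle class 36.0% and 28.1%, in the fourth class 38.6% and 22.3%, and in the densest (75 to 156 others) 24.8% of 101 near and 13.4% of 11247 far. Other features that go with position, such as gene content, were not analysed here.

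Of 84 tested peaks between 10 and 200 kb from the 8 peaks with the highest ratio, 42 (50%) had risen by 2-fold or more and 2 (2.38%) had fallen by as much, against 26.4% and 15.1% of all peaks. Around the whole set, higher peaks made up 33.0% to 41.3% over the bands within that reach. The places differed. Peaks that had risen by 2-fold or more numbered 8 of 10 on chromosome 24, with 2 further isolated opened peaks in reach, 6 of 9 and 3 of 5 around the peaks from 56317552 and from 61819399 on chromosome 11, 10 of 18 on chromosome 7 and 4 of 8 on chromosome 13. They numbered 7 of 21 on chromosome 4, 3 of 10 on chromosome 18 and 1 of 3 on chromosome 12.

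The next peak beyond 10 kb was called higher, by any fold, at 5 of the 8, where 42.0% of all tested peaks of the numbered chromosomes beyond 10 kb were. At 13.3 kb from the chromosome 24 peak, the peak from 11242097 to 11242597 had 7.81 and 8.74 CPM in reseeded A and B, against 0.913 and 0.959 CPM in mature A and B (log2 fold 3.1, SE 0.31, adjusted p = 6.04e-11). At 63.0 kb from the chromosome 12 peak, the peak from 24718318 to 24718818 had 17.9 and 17.7 CPM in reseeded A and B, against 2.51 and 2.24 CPM in mature A and B (log2 fold 2.84, SE 0.19, adjusted p = 1.31e-15). Both neighbours were low in mature cells and higher in both reseeded libraries.

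The next peaks on chromosome 18 (18.8 kb away, log2 fold 1.05, SE 0.10), on chromosome 11 beside the peak from 61819399 (66.0 kb, log2 fold 1.86, SE 0.20) and on chromosome 4 (74.0 kb, log2 fold 0.63, SE 0.13) were also called higher. Beside the chromosome 11 peak from 56317552 the next peak, 38.3 kb away, was called lower, with 8.64 and 7.58 CPM in reseeded A and B, against 14.2 and 13 CPM in mature A and B (log2 fold -0.81, SE 0.14, adjusted p = 4.5e-06). On chromosomes 7 and 13 the next peaks had log2 folds of 0.20 (SE 0.11, adjusted p = 0.0957) and -0.25 (SE 0.11, adjusted p = 0.0414), and either call depended on the setting.

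**Figure D4:**
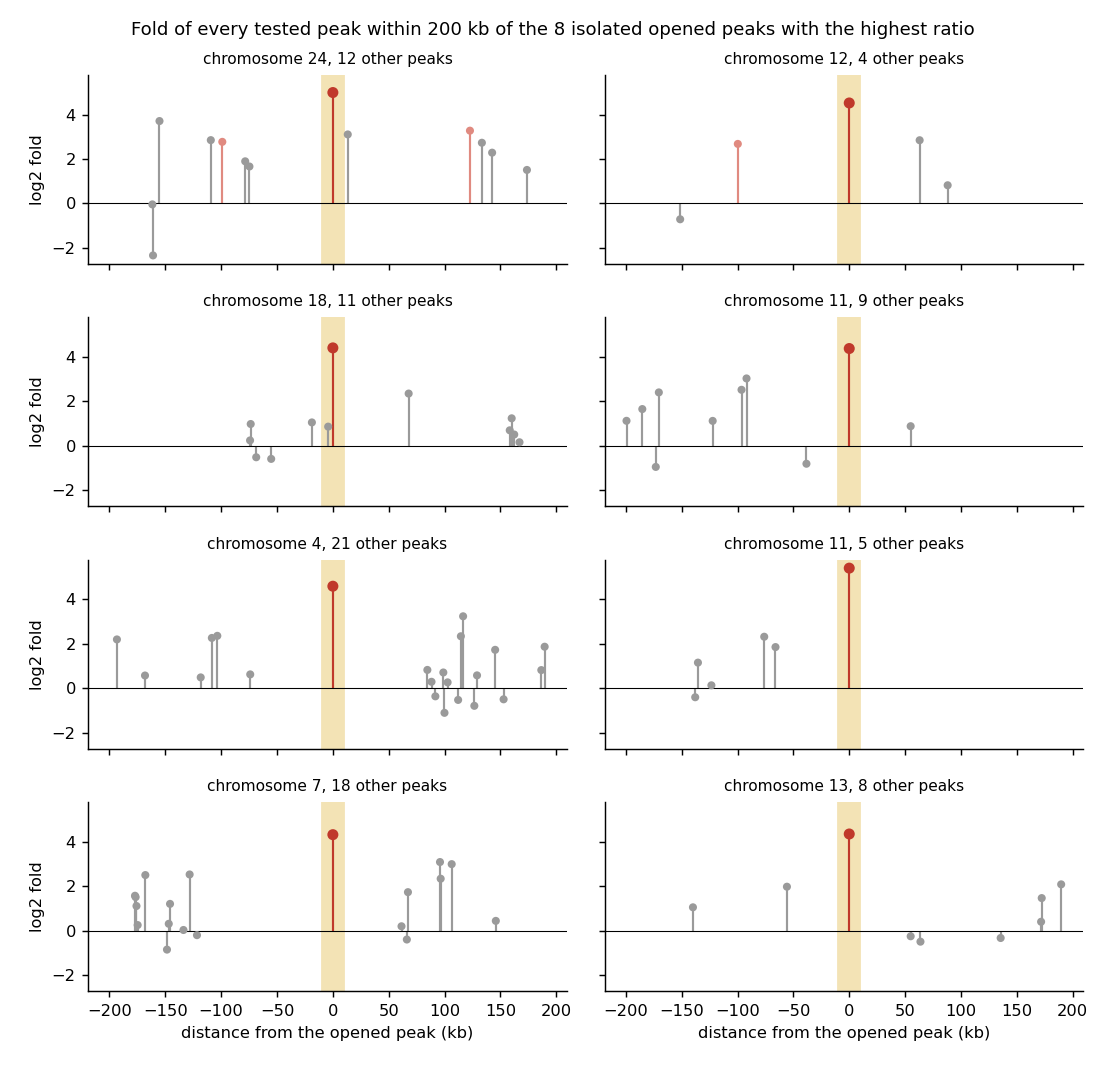
Fitted log2 fold, reseeded over mature, of every tested peak within 200 kb of the 8 isolated opened peaks with the highest ratio, 1 panel each, against the distance from that peak (large point at 0; light coloured points, other isolated opened peaks; band, the 10 kb on either side in which no other gained peak may lie). Points above 0 are higher in reseeded cells; beyond the band, 42 of 84 peaks outside the set lie at a rise of 2-fold or more, and 2 at a fall of that size.

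The surroundings had similar shares of higher peaks whatever the reseeded level of the opened peak, and larger shares where its mature level was lower; these differences were not tested. Among neighbours 10 to 50 kb away, the share at least 2-fold higher was 38.8% around the 213 peaks of 10 to under 12 CPM in reseeded cells, 38.4% and 38.3% around the next classes, and 41.8% (69 of 165) around the 65 peaks of 20 CPM or more. By mature level it was 48.5% (32 of 66) around the 35 peaks under 1 CPM, 43.0% (168 of 391) around the 164 peaks of 1 to under 1.5 CPM and 36.8% (390 of 1061) around the 373 peaks of 1.5 CPM or more. Density differed too, with a median of 23, 23 and 28 other peaks within 500 kb in these 3 mature classes. Peaks with nothing else within 10 kb and those with another peak there had shares of 39.5% and 37.6%.

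Summed over windows of 1 Mb, from which the isolated opened peaks and all peaks within 10 kb of them had been removed, accessibility was more often higher where such a peak lay. Of 417 tested windows that held at least 1, 222 (53.2%) were called higher after reseeding and 124 (29.7%) lower, against 43.5% and 41.9% of all 1796 tested windows. Windows with 1 isolated opened peak were called higher in 160 of 320 cases (50.0%) and those with 2 or more in 62 of 97 (63.9%), and their median log2 folds were 0.07 and 0.19, against -0.02 for windows with none. Scaled by library size alone, 284 of the 417 were called higher and 82 lower, against 56% and 30% of all windows. The removal was not neutral, as it took out the opened peaks and also neighbours that the rule bars from being gained. Windows with and without an isolated opened peak were not matched for peak density.

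The isolated opened peaks lay on all 38 numbered chromosomes, at very different rates. Chromosome 36 had 15 among 454 peaks (33.0 per 1000), chromosome 29 had 14 among 535 (26.2 per 1000), and chromosomes 19 and 33 had 20.8 per 1000 each. Chromosome 17 had 4 among 2623 peaks (1.53 per 1000) and chromosome 26 had 4 among 1293 (3.09 per 1000). The largest numbers were on chromosomes 2 (37), 1 (33) and 7 (29). Chromosomes 36, 29 and 19 are sparse in peaks, with 14.9, 12.8 and 10.7 per Mb, whereas chromosome 17 has 40.8, and chromosome 22, with 13.3 per Mb, had only 11.0 isolated opened peaks per 1000.

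The sparsest of the 5 density classes held 282 of the 572 (49.3%), with at most 25 other peaks within 500 kb. In that class 2.35% of peaks were in the set, and from there to the densest class the shares were 1.26%, 0.666%, 0.466% and 0.158%. Peaks at the same levels with a gained neighbour within 10 kb made up 0.968% of the sparsest class and 0.0439% of the densest, and isolated closed peaks 1.59% and 0.756%. From sparse to dense the median reseeded CPM of the opened peaks was 12.9, 13.4, 13.1, 13.4 and 12.7, with no order, whereas their median mature CPM was 1.61, 1.61, 1.67, 1.74 and 1.79. A sparse region makes isolation easier to meet, but among peaks at these levels the isolated ones made up 70.9% in the sparsest class, 50.3% in the middle and 78.3% (18 of 23) in the densest.

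**Figure D5:**
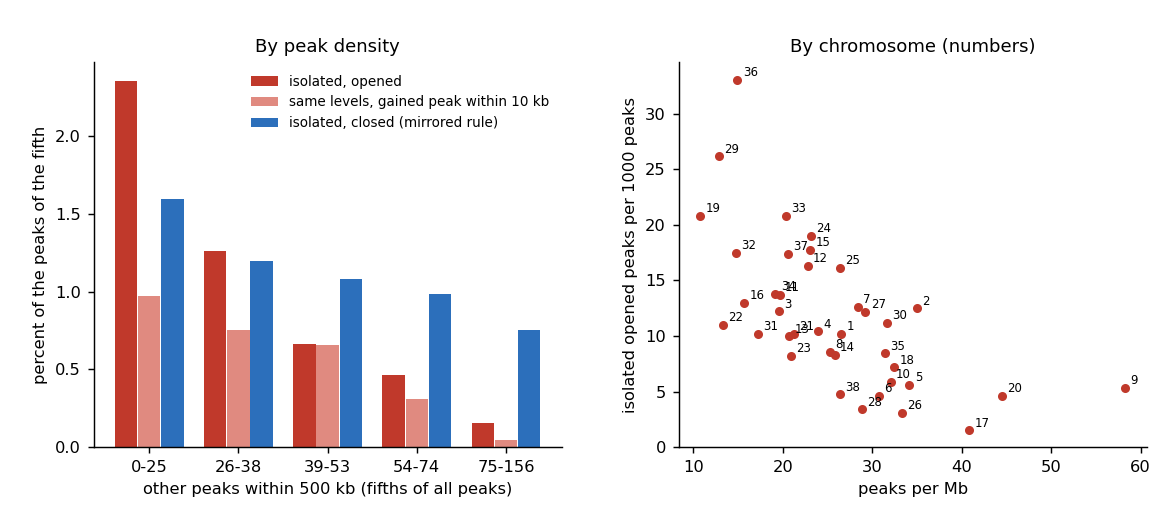
Left, percent of the peaks in each of 5 classes of peak density (number of other peaks within 500 kb) that were isolated and opened, opened with a gained peak within 10 kb, or isolated and closed. Right, isolated opened peaks per 1000 peaks of each numbered chromosome (vertical) against its peaks per Mb (horizontal); the left bars go from 2.35% to 0.158% for the isolated opened peaks, and chromosome 36 is highest with 33.0 per 1000.

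Chromosome ends held few of them. Within 3 Mb of the first peak of a chromosome lay 15 (2.62%), and within 3 Mb of the last 13 (2.27%), against 5.76% and 5.55% of all peaks of the numbered chromosomes and 10.8% and 11.7% of the isolated closed peaks. The nearest lost peak (ratio of 0.5 or less) was at a median of 168.3 kb, against 52.9 kb over all peaks. Of the 572, 119 (20.8%) had one within 50 kb, against 48.8% of all peaks. Peaks at the same levels with a gained peak within 10 kb were also few at the ends, at 3.79% and 0.946%. For them the nearest lost peak was at a median of 151.3 kb, and 21.1% had one within 50 kb.

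Most isolated opened peaks were far from one another, though closer than an ordinary peak is to one of them. The median distance to the nearest other one was 739.9 kb, against 1651.3 kb over all peaks of the numbered chromosomes. Of the 572, 65 (11.4%) had another within 100 kb, against 6.08% of all peaks. Peaks at the same levels with a gained peak within 10 kb were also closer to an isolated opened peak than usual. Their median distance to one was 973.5 kb, and 8.52% had one within 100 kb. Peak density was not matched in these comparisons. In all, 352 windows of 1 Mb held exactly 1 isolated opened peak, 80 held 2, 17 held 3, 1 held 4 and 1 held 5. The window with 5, on chromosome 24 from 11000001 to 12000000, contained the peak with the highest ratio. Its other isolated opened peaks started at 11129798, 11351473, 11642451 and 11769088 and had 10.1 to 14.4 CPM in the reseeded libraries, against 0.799 to 2.51 CPM in the mature libraries. Of its 26 peaks outside the set, 12 had a ratio of 2 or more, a ratio that 25.7% of all peaks outside the set reached. The window with 4 was on chromosome 27 from 20000001 to 21000000, where 13 of the 38 peaks outside the set did.

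At the far end of isolation, 121 of the 572 (21.2%) had no other peak within 50 kb and 42 (7.34%) none within 100 kb, against 4.38% and 1.55% of all peaks on the numbered chromosomes; barring gained peaks within 10 kb raises these shares. The loneliest was on chromosome 28 from 19718534 to 19719034, 1603.2 kb from any other peak, with 16.4 and 16.5 CPM in reseeded A and B, against 1.48 and 1.92 CPM in mature A and B. On chromosome 11 from 70336430 to 70336930, 1290 kb from any other, there were 11.7 and 11.1 CPM in reseeded A and B, against 1.71 and 1.92 CPM in mature A and B. On chromosome 3 from 5200381 to 5200881, 931 kb from any other, there were 9.70 and 10.6 CPM in reseeded A and B, against 2.17 and 1.28 CPM in mature A and B. The chromosome 3 peak was close to the lower reseeded limit, and the chromosome 28 peak lay above the set's upper quartile of 16.2 CPM in reseeded cells.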

How the data were processed

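Per the submitters' processing notes, reads were processed with Bowtie2 and MACS2 on CanFam3.1; of versions, settings, duplicate removal, any Tn5 offset and the unit counted, nothing is stated in the sources used here. The authors' deposited table holds raw counts per peak. Chromosome accessions were read as chromosomes 1 to 38 and X. Selected peaks, lists and comparisons were chosen with earlier results of these data known. CPM used column totals. Tests used edgeR 4.0.16 in R 4.3.3 (quasi-likelihood, TMM, filterByExpr, 59076 peaks tested, reseeded against mature, Benjamini-Hochberg adjusted p under 0.05); a log2 fold is relative to the other peaks, and its SE came from the fold and its F statistic. Windows of 1 Mb needed 5 remaining peaks. Counting intervals are exact Clopper-Pearson intervals at 95% on pooled counts (Poisson limits for CPM) and, like floors, cover counting error only, since PCR copies may be counted. In simulated counts for 59081 peaks, 1.5-fold changes were called at 75 of 100 peaks and 2-fold changes at 100 of 100, beside 5 false calls. For 1796 windows, 1.3-fold changes were called at 20 of 20, beside 1 false call. Each simulation gave all features 1 common dispersion and raised only these few, none of them at a low count. In the data 24966 of 59076 tested peaks were called higher and 24722 lower, so the simulations do not gauge false calls there.

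Peaks named singly were those with the 8 highest ratios, 5 highest reseeded and 3 lowest mature levels, the 3 nearest to and farthest from another peak, and 3 on either side of each limit; the neighbours named were added after their values were seen. Alternatives covered the limits of the rule, the isolation distance, scaling (DESeq2 size factors, upper quartile, library size, TMM), filters, the Wald test of DESeq2 1.42.0, a replicate block by library letter, distance bands, window sizes and leaving out every library once, where the lone library of a group was assumed to vary as the other pair does. Sequence, motif and gene descriptions that had been planned were not run, as no genome of the build was used here. Positions and ratios came from pandas 2.3.3, numpy 2.4.6 and scipy 1.17.1.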

Additional observations from a re-analysis of the deposited data

How the results depend on the processing

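Of 67 alternatives for the main values, 59 left them within 1.5 times the count or within the spread between libraries. The size of the set followed its limits: 35 peaks with a mature limit of 1 CPM, 1591 with 3 CPM, 1621 with a reseeded limit of 5 CPM, 65 with 20 CPM and 251 with isolation over 50 kb. With a library left out it was 426 to 934, the highest without mature B, and TMM-scaled CPM gave 526, of which 522 were shared. The median ratio with 0.5 CPM added, 6.70, was 6.09 to 7.71 with a library left out. Bands of 10 to 20 kb and 20 to 100 kb held 169 and 1004 higher peaks, as fewer or more peaks lie in them, or 41.3% and 35.3%; over all other settings the share was 37.2% to 39.7%. Around peaks chosen by changed limits or without a library, a setting added after the data were seen, it was 34.2% to 50.0%. The replicate block called 584 of the 1505 neighbours and 15812 of all peaks at least 2-fold higher and 222 windows higher, so it changed no count by 1.5 times. Across peaks, the gap between A and B in reseeded cells had a correlation of 0.0314 with that in mature cells. The gaps were thus almost unrelated, but this cannot tell whether libraries of the same letter were prepared together. Named neighbours kept direction and call in 121 of 132 alternatives; the exceptions were the next peaks on chromosomes 7 and 13, and the uncalled log2 fold of that on chromosome 7 was -0.01 without mature B and 0.52 without mature A. Depth limits the mature values: 2 CPM is 17.5 counts in mature A and 12.5 in mature B.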

Other observations

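Chromosome X, which the rule leaves out, held 14 peaks with at least 10 CPM in reseeded and under 2 CPM in mature cells, and 12 of them had no other gained peak within 10 kb. Over the whole table, 114 peaks had a mean under 0.5 CPM in reseeded cells and 12 in mature cells.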
